A study of Homo sapiens with 6 samples.

Results

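Cohesin positions away from gene starts that were listed as peaks in control and in ICM-treated fibroblasts, but not in senescent ones, were described. The cells were IMR90, human fetal lung fibroblasts, and all 6 labels carry I79, which they do not explain. The assay was CUT&Tag, in which a transposase is tethered by an antibody to DNA near a chromatin protein. The fragments that the transposase cuts there are sequenced. Peaks of SMC1, a subunit of the cohesin ring, were taken from 3 lists. These came from control cells (p number 16), cells treated with ICM (p number 16, with no days in its label) and senescent cells (p number 34). CTCF lists came from control cells (p number 21), cells treated with ICM for 6 days (p number 16) and senescent cells (p number 34). ICM is inflachromene, a small molecule that binds HMGB proteins. The paper that reported these data describes an arrested, senescence-like state of IMR90 cells after 6 days of ICM. It set this beside replicative senescence, reached by serial passaging. Here the word senescent is kept for the cells of p number 34. The paper also reports reduced SMC1 signal at shared CTCF peaks in both ICM-treated and senescent cells. There was 1 library per group, so no difference between conditions could be tested. The p number differed between control and senescent cells, so that passage and senescence cannot be told apart, and the control libraries of the 2 antibodies also differed in p number. The labels name no treatment for p number 34, which was taken as senescent from the description of the series.

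Whole SMC1 peaks of the 3 lists that overlapped by at least 1 bp were merged on chromosomes 1 to 22 and X, which gave 22580 loci. A locus was called distal when it overlapped no protein-coding gene 5′ end extended by 1 kb on both sides, and 15922 loci were distal. The loci described here were selected on the SMC1 peaks themselves. They were the 2394 distal loci with a peak in the control list and in the ICM list and none in the senescent list, or 15.0% of all distal loci. A locus without a senescent peak is one that did not enter the senescent list, which holds the top 1% of regions of its library by signal. It does not follow that cohesin was absent there. Sequencing depth behind the lists is unknown, and no common scale of their signal values is known. Ranks were therefore taken within each list as percentiles (100 is the highest total signal). Shares carry exact (Clopper-Pearson) 95% intervals, which cover counting error only and not the variation between cultures.

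Cohesin is a ring-shaped complex that extrudes chromatin into loops. CTCF is a zinc finger protein that binds DNA and halts cohesin, so that many cohesin peaks coincide with CTCF sites and mark loop anchors and domain borders. Cohesin also gathers where it is loaded, at active promoters and enhancers, without CTCF. Senescent fibroblasts have left the cell cycle for good, with changes in nuclear architecture that include altered CTCF and HMGB distribution.

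Reference sequence in the build of the files (GRCh38.p14, RefSeq) was at hand for windows around annotated gene starts only. Although no locus lay within 1 kb of the outermost 5′ end of a protein-coding gene with a known strand, 232 of the 2394 (9.69%) overlapped such a window, which belonged to a noncoding gene or to a start inside a gene. The 250 bases before the start are shown for 3 of these loci with high ranks, to show the kind of DNA under them. Not all chromosomes were eligible for this display, so loci of higher rank may have been left out. All 250 bases lay inside the locus in each case. The sequences run 5′ to 3′ on the strand of the gene, and capitals mark a match to AGNGGGC, a short form of the CTCF core motif, on either strand.
FRMD6-AS1, chr14:51651745-51651994, minus strand: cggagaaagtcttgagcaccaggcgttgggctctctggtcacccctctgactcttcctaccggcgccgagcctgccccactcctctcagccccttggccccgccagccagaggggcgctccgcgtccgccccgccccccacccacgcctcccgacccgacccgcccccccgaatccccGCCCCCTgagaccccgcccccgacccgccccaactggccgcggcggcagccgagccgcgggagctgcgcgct
FBXO31, chr16:87383777-87384026, minus strand: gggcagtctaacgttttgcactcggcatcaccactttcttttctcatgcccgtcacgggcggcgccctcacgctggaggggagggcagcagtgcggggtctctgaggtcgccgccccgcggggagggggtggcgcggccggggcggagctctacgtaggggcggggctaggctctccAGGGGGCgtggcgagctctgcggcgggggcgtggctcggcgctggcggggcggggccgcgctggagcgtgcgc
LINC01465, chr12:62603435-62603684, minus strand: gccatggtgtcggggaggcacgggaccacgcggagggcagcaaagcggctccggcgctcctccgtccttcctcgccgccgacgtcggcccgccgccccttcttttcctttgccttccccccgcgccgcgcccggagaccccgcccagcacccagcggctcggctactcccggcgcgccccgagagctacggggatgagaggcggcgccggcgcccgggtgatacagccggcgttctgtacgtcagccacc
FRMD6-AS1 is a noncoding gene opposite FRMD6, LINC01465 is another noncoding gene, and the FBXO31 window belongs to a start inside that gene, with the locus 7708 bp from its outermost 5′ end. G and C made up 76.4%, 74.8% and 74.8% of the bases. A match was present once in the first, once in the second and not in the third. The SMC1 peaks ranked at percentile 97.1 in control and 98.6 in ICM-treated cells at FRMD6-AS1, at 87.7 and 97.0 at FBXO31, and at 93.4 and 88.3 at LINC01465. A CTCF peak of the ICM list overlapped the first and the second locus, and CTCF peaks of all 3 lists overlapped the third. The nearest senescent SMC1 peaks were 69425, 7241 and 261797 bp away. Over the 314 windows that overlapped the loci, 38.2% (95% CI 32.8 to 43.8) held AGNGGGC, while 37.8% (34.4 to 41.4) of the 753 windows at distal loci of all 3 lists and 30.4% (29.9 to 30.8) of all 34789 windows did. The AP-1 motif TGANTCA was in 12.7% (9.26 to 16.9) of the windows at the loci, in 14.1% (11.7 to 16.8) at distal loci of all 3 lists and in 7.69% (7.41 to 7.98) of all windows. The 2 motifs were searched on both strands, and a base could count towards both. A match is a description of the letters and not a site. These windows hold the small part of the loci at annotated starts. A window counted when it overlapped a locus by at least 1 bp, so a match may lie outside the locus. Windows of nearby starts could share bases, which the intervals do not allow for.

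Among distal loci with a peak in both the control and the ICM list, 32.2% (95% CI 31.2 to 33.3, 2394 of 7428) were missing from the senescent list, and the other 5034 were in all 3 lists. The same count for the other lists gave 20.3% (19.4 to 21.4) of loci in ICM and senescent that were missing from control, and 8.92% (8.18 to 9.70) of loci in control and senescent that were missing from ICM. At distal loci the share missing was thus larger the shorter the list, which held 17809 peaks for ICM, 14883 for control and 12927 for senescent cells. With all lists cut to 12927 peaks by total signal, 1433 distal loci were left with this pattern, which was 24.9% of those in control and ICM. At promoters the share missing from senescent was 27.8% (26.5 to 29.1, 1235 of 4448), below the share at distal loci. The order of the other lists was turned at promoters, with 5.47% missing from control and 10.2% missing from ICM.

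**Figure D1:**
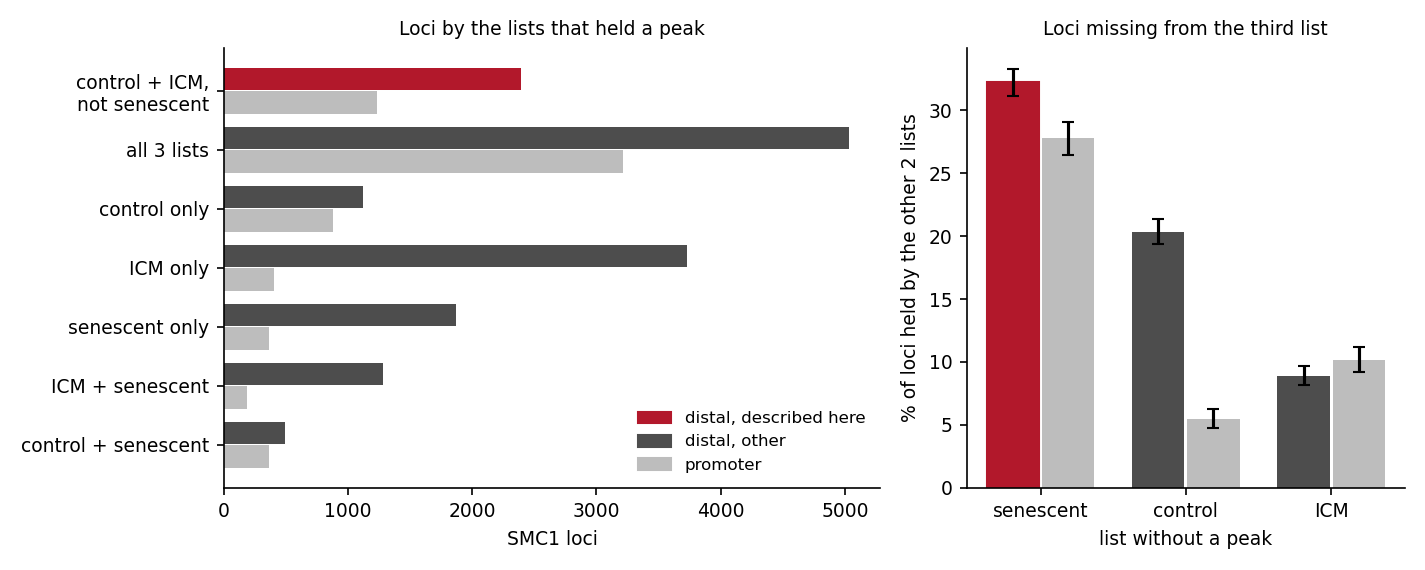
Left, SMC1 loci (x axis, number) by the lists that held a peak (y axis), for distal loci and for loci within 1 kb of a protein-coding 5′ end; the 2394 loci described are in red. Right, share (y axis, %) of loci held by the other 2 lists that were missing from the list named on the x axis, with exact 95% intervals; it was highest for the senescent list, at 32.2% of distal and 27.8% of promoter loci.

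The loci missing from the senescent list ranked lower in the control and ICM lists than the distal loci of all 3 lists. Their total signal in the control list ranged from 3457 to 20382 with a median of 4658, and in the ICM list from 2455 to 15272 with a median of 3701. The lowest totals admitted to these lists were 3456 and 2455, so the weakest of the loci lay at the threshold. The median percentile was 31.6 in control and 45.5 in ICM, while it was 60.5 and 72.2 for distal loci of all 3 lists. By the highest signal within the peak the medians were 44.6 and 53.5, against 60.4 and 67.9. Both lists ranked 429 of the loci (17.9%, 95% CI 16.4 to 19.5) above percentile 50, against 55.2% (53.9 to 56.6) of distal loci in all 3 lists. Only 4 of the loci were above percentile 90 in both. They ranked higher in the ICM list than in the control list in 67.1% of cases (65.2 to 69.0), which was close to the 68.9% (67.6 to 70.1) of distal loci in all 3 lists. The loci had a median width of 832 bp against 1177 bp for those of all 3 lists, which also span a senescent peak. Within a list the difference was smaller. The control peaks covered a median of 745 bp against 911 bp, and the ICM peaks 675 bp against 827 bp. Exactly 1 control and 1 ICM peak were held by 2381 of the loci. The ranks are measures of the same peaks that the loci were selected on, and they are given as a description.

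When distal loci in control and ICM were ordered by their mean percentile and divided into 4 groups of 1857, the share missing from senescent was 59.5% (95% CI 57.2 to 61.7) in the lowest group, 40.3% (38.1 to 42.6) and 23.4% (21.5 to 25.4) in the middle groups, and 5.71% (4.70 to 6.86) in the highest. There remained 106 loci in that highest group. The 6 with the highest mean percentile were spread over 6 chromosomes. The first, at chr14:51651191-51652874 (hg38, as all positions here), lay inside FRMD6, which codes for a FERM domain protein linked to the Hippo pathway, and had a total signal of 19753 in control and 15272 in ICM. The second, at chr18:3623762-3624604 inside DLGAP1, a scaffold gene of synapses, had 16186 and 12712. The next lay inside BDNF, a neurotrophin gene, at chr11:27698736-27701316, with 19339 and 8717, and stood higher in control (percentile 96.9) than in ICM (91.1). The fourth, at chr1:64917278-64918061 in JAK1, which encodes a cytokine receptor kinase, had 14079 and 10862. The fifth was the FBXO31 locus (11842 and 12499), and the sixth, at chr10:104298867-104301577 in the glutathione transferase gene GSTO2, had 18443 and 7841. Their nearest senescent SMC1 peaks were between 7241 and 69425 bp away, so none of the 6 had one within 5 kb. The BDNF and GSTO2 loci were wide, at 2581 and 2711 bp against a median of 832 bp. By the highest signal within the peak they ranked at 87.5 and 75.8 in control and at 63.6 and 53.5 in ICM. By that measure the FRMD6 locus ranked at 82.5 and 94.5, and the DLGAP1, JAK1 and FBXO31 loci at 90.8 or above in both lists.

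**Figure D2:**
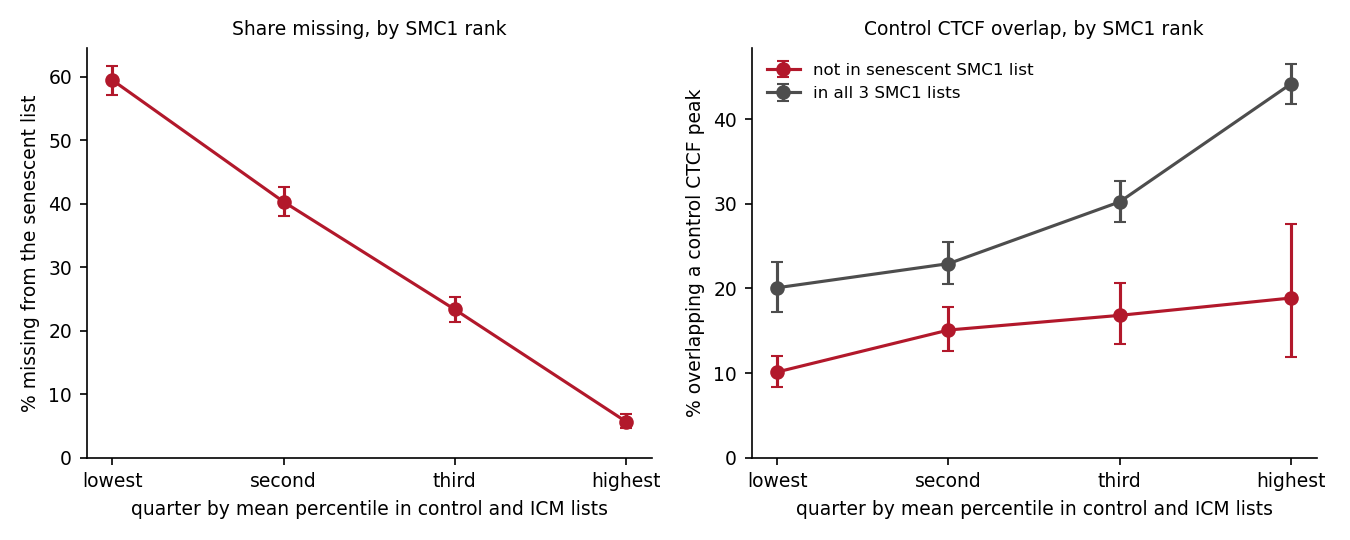
Left, share of distal loci in control and ICM that were missing from the senescent list (y axis, %), in 4 groups of equal size by mean percentile in both lists (x axis). Right, share overlapping a CTCF peak of the control list (y axis, %) for the loci missing from senescent (red) and for those of all 3 lists (grey); bars are exact 95% intervals. The share missing fell from 59.5% to 5.71%, and the red points lay below the grey ones in each group.

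The selection left out any overlap with a senescent SMC1 peak. The distance to the nearest senescent SMC1 peak had a median of 26601.5 bp and ranged from 73 to 3316316 bp. It was under 1 kb for 117 loci (4.89%, 95% CI 4.06 to 5.83), under 5 kb for 440 (18.4%), under 10 kb for 695 (29.0%) and under 50 kb for 1565 (65.4%). The closest was at chr9:92137211-92138846, 73 bp from a senescent peak, and the next at chr3:159764987-159766301 inside SCHIP1, 78 bp away. Loci this close would have been counted as present under a slightly wider rule. Leaving out all loci with a senescent peak within 5 kb kept 1954.

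**Figure D3:**
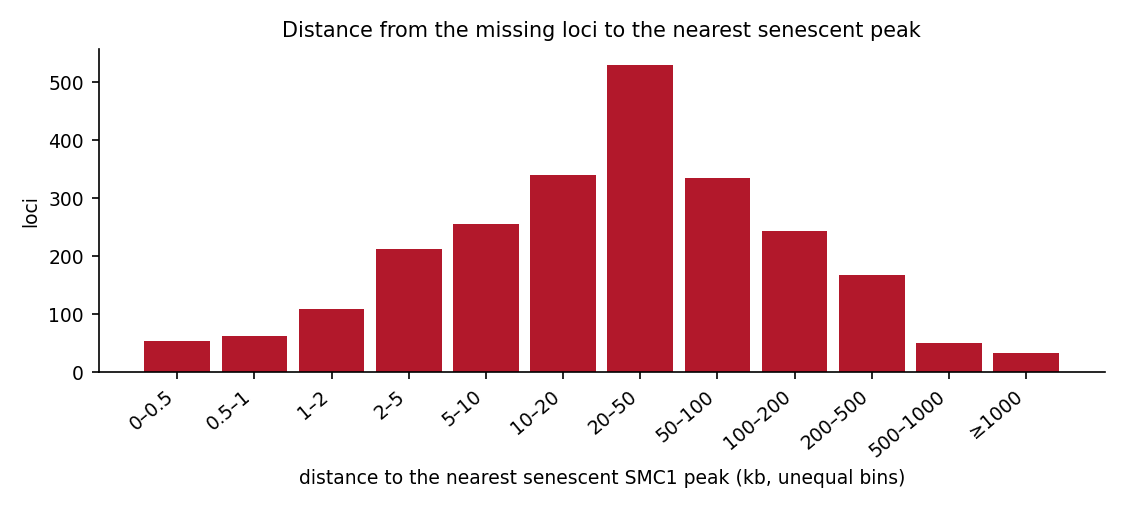
Number of the 2394 loci (y axis) by distance to the nearest senescent SMC1 peak (x axis, kb, bins of unequal width). The fullest bin is that of 20 to 50 kb with 530 loci, and 117 loci lay nearer than 1 kb.

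CTCF was listed at a minority of the loci. A control CTCF peak overlapped 318 of them (13.3%, 95% CI 11.9 to 14.7), where 16.8% of all distal SMC1 loci had one. An ICM CTCF peak overlapped 459 (19.2%, 17.6 to 20.8), against 23.4% of all distal loci, and a senescent CTCF peak 555 (23.2%, 21.5 to 24.9), against 27.3%. At least 1 of the 3 CTCF lists overlapped 646 (27.0%, 25.2 to 28.8), against 31.0%, and the other 1748 loci (73.0%) had no CTCF peak in any list. Each share was thus a few percentage points below the background, which includes the many loci of a single SMC1 list. The distance from distal loci in all 3 SMC1 lists was wider. There the shares were 31.9% (30.7 to 33.3) for control, 40.7% (39.4 to 42.1) for ICM and 41.2% (39.8 to 42.5) for senescent CTCF, and 46.8% (45.4 to 48.2) for any list. The control CTCF share was 12.8% (11.0 to 14.7) at distal loci of ICM and senescent and 12.0% (10.1 to 13.998) at those of control only. It was 5.15% (4.46 to 5.91) at those of ICM only and 7.93% (6.74 to 9.25) at those of senescent only. Loci of control and senescent had a higher share, 21.1% (17.6 to 24.97). A low control CTCF share was thus found in several classes but not in all. For any CTCF list, the 27.0% of the loci was below the 31.9% of ICM and senescent and the 33.7% of control and senescent. It was above the 22.4% of control only, 17.8% of ICM only and 23.9% of senescent only. Loci in all 3 lists were also wider. With 100 bp windows centred on SMC1 and CTCF summits, into which the width does not enter, the control CTCF shares were 10.1% and 26.2%, though a locus in all 3 lists has at least 3 SMC1 summits to match.

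**Figure D4:**
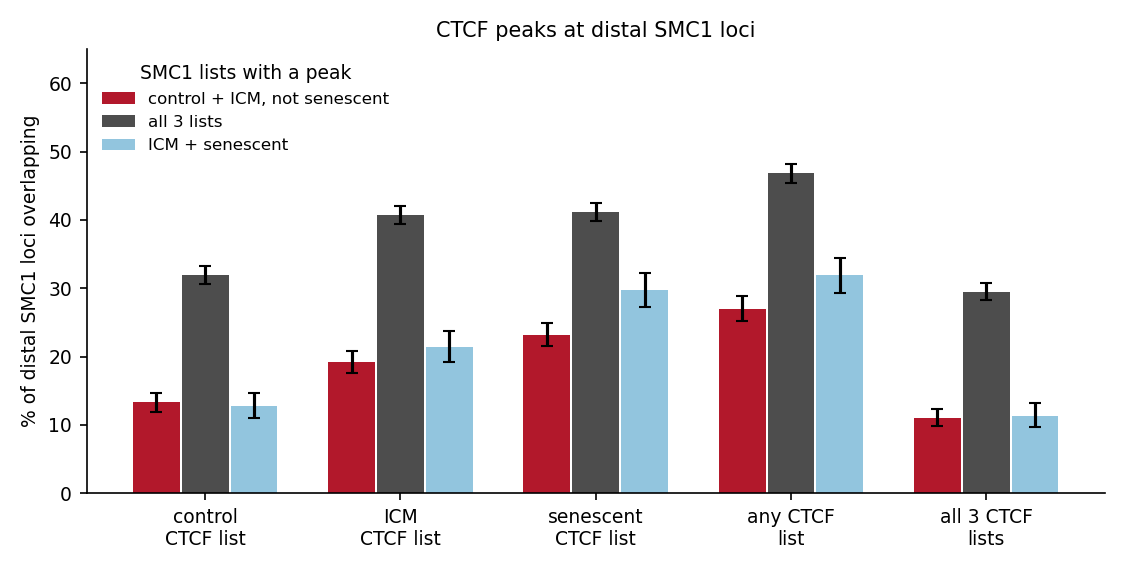
Share of distal SMC1 loci (y axis, %) that overlapped a peak of the CTCF list on the x axis, for loci in control and ICM but not senescent (red), in all 3 SMC1 lists (grey), and in ICM and senescent but not control (blue), with exact 95% intervals. The red bars stood below the grey ones for each CTCF list, at 13.3% and 31.9% for control CTCF.

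More of the loci overlapped a senescent than a control CTCF peak, although SMC1 was not listed there in senescent cells. Cutting the CTCF lists to the 4673 peaks of the shortest removed this order, with 13.3% of loci overlapping a control and 13.7% a senescent CTCF peak. In the complete lists, 264 loci (11.0%, 95% CI 9.80 to 12.4) overlapped CTCF in all 3 lists, 158 (6.60%) in the senescent list alone, 112 (4.68%) in ICM and senescent, 58 (2.42%) in ICM alone and 8 (0.334%) in control alone. Distal loci of all 3 SMC1 lists had CTCF of all 3 lists in 29.5% (28.2 to 30.8) and senescent CTCF alone in 5.01% (4.42 to 5.64). Seen from the CTCF side, SMC1 was missing from the senescent list at 39.5% (38.1 to 41.0) of distal control and ICM loci without CTCF. The share was 30.4% (27.9 to 33.1) of those with CTCF in 1 or 2 lists and 15.1% (13.5 to 16.9) of those with CTCF in all 3.

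Where CTCF was present at the loci, its peaks were of middle rank. Their median percentile was 38.2 in the control, 45.5 in the ICM and 53.4 in the senescent CTCF list, while at distal loci of all 3 SMC1 lists it was 59.0, 65.1 and 74.4. The SMC1 and CTCF summits lay close together, with a median distance of 49.5 bp in control and 53 bp in ICM, and within 100 bp at 219 of 318 and 302 of 459 loci. These medians were 52 and 55 bp at distal loci of all 3 lists. In 4 groups by mean SMC1 percentile, control CTCF overlapped 10.1%, 15.1%, 16.8% and 18.9% of the loci, from lowest to highest SMC1 rank. It overlapped 20.1%, 22.9%, 30.2% and 44.1% of distal loci in all 3 lists in the same groups. The groups were broad, and the width of the loci was not held equal within them.

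The 4 loci with CTCF in all lists and the highest control CTCF signal held some of the strongest CTCF peaks. At chr9:92137211-92138846, outside protein-coding genes, with SPTLC1 as the nearest 5′ end at 21798 bp, the CTCF total was 108791 in control, 168399 in ICM and 65776 in senescent cells, and its percentile was 98.5, 99.0 and 99.7. The SMC1 percentile there was 66.7 in control and 81.7 in ICM, and a senescent SMC1 peak began 73 bp outside the locus. At chr12:54378954-54380364, inside ZNF385A, which encodes a zinc finger protein, the CTCF percentiles were 97.0, 95.4 and 97.6, the SMC1 percentiles 46.4 and 66.7, and the nearest senescent SMC1 peak was 8133 bp away. At chr12:54214446-54215444, 25461 bp from the 5′ end of the DNA repair gene SMUG1, CTCF ranked at 96.9, 95.6 and 99.1 but SMC1 at 11.7 and 14.1. At chr3:187740725-187741975, inside the repressor gene BCL6 and 3493 bp from its 5′ end, CTCF ranked at 96.9, 98.4 and 96.1 and SMC1 at 65.7 and 62.9. Senescent SMC1 peaks lay 1337 and 1278 bp from the last 2. Of these 4 loci, 3 thus had a senescent cohesin peak within 5 kb.

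The loci lay over genes about as often as other distal loci. A protein-coding gene body was overlapped by 1337 (55.8%, 95% CI 53.8 to 57.8), where 54.1% of all distal loci and 53.2% (51.8 to 54.5) of those in all 3 lists overlapped one. Other genes alone were overlapped by 410 (17.1%), and 647 (27.0%) lay over no annotated gene. A protein-coding start inside a gene, away from the outermost 5′ end, was within 1 kb of 147 loci (6.14%), and a noncoding start within 1 kb of 150 (6.27%). The median distance to the nearest protein-coding 5′ end was 39635.5 bp, longer than the 30847 bp of distal loci in all 3 lists, and 19.0% (17.5 to 20.7) against 22.8% (21.7 to 24.0) were within 10 kb. The 2 loci just past the limit of 1 kb were at chr17:40362078-40363736, 1001 bp from the 5′ end of the connexin gene GJD3, and at chr11:116835570-116836620, 1002 bp from that of the apolipoprotein gene APOA1. The 2 loci of the same lists just inside it, which were therefore kept out, lay 983 bp from GRIN3B and 982 bp from MRGPRG.

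Most genes with a locus had only 1. Of 19974 protein-coding genes, 1126 had at least 1 locus over their body, and of these 949 had 1, 132 had 2, 29 had 3, 14 had 4 and 2 had 5. The same count was not made for other distal loci. With a distance of up to 10 kb allowed, 8.19% of protein-coding genes had one of the loci. Any distal locus of the control list was there for 23.8%. SMAD3, the transcription factor that carries TGF-β signals to the nucleus, and FRMD6 had 5 each. The SMAD3 loci lay 15.4, 23.9, 44.2, 81.2 and 102.8 kb downstream of the 5′ end. Their total signals were 4201, 4461, 5473, 6429 and 6602 in control and 4238, 3431, 6413, 3108 and 4559 in ICM. These placed them at percentiles of 21.9 to 59.4 in control and 28.5 to 81.0 in ICM. None of them had a CTCF peak, and SMAD3 had 4 further distal loci in all 3 lists. The FRMD6 loci had totals of 6242, 5714, 7228, 4901 and 19753 in control and 6208, 4909, 6361, 5021 and 15272 in ICM. The fifth, at FRMD6-AS1, thus stood far above the others. FRMD6 had 2 further distal loci in all 3 lists.

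Of the 14 genes with 4 loci, the 8 with the most loci per length are given here. PRDM1, which encodes a transcriptional repressor, had 4 and no distal locus in all 3 lists. Its loci had totals of 3740, 3458, 5433 and 6201 in control and 3355, 3143, 4267 and 3915 in ICM, and the nearest senescent peaks were between 40633 and 133446 bp away. DDAH1, an enzyme gene of dimethylarginine breakdown, had 1 locus in all 3 lists, and its loci had control totals of 6858, 10434, 7001 and 4501 and ICM totals of 5206, 7481, 3280 and 3242. DCAF5, which encodes a ubiquitin ligase adaptor, and the collagen gene COL15A1 had 2 loci in all 3 lists each. COL4A2, a basement membrane collagen gene, MYLK, the myosin light chain kinase gene, and TNS3, a focal adhesion gene, had 5 each. SEPTIN9, a septin gene of the cytoskeleton, had 10. At COL4A2, MYLK, TNS3 and SEPTIN9 the missing loci were thus fewer than those of all 3 lists. These 10 genes are between 102317 and 334297 bp long, while the median of all protein-coding genes is 24.2 kb.

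Gene lists of fibroblast biology were then counted, with a locus over the gene or within 10 kb. Among all protein-coding genes 8.19% had one, and 23.8% had any distal locus of the control list. Of 41 actin cytoskeleton and mechanosensing genes, 15 (36.6%) had one, of 38 extracellular matrix genes 11 (28.9%), of 33 growth factor receptor and TGF-β genes 9 (27.3%), and of 37 lung mesenchyme transcription factor genes 10 (27.0%). The same lists had a distal control locus in 75.6%, 63.2%, 66.7% and 59.5% of their genes, so they were rich in distal cohesin altogether. Their genes were also longer, with medians of 57.9, 42.0, 87.8 and 76.7 kb against 24.2 kb over all genes. Of the loci that were either missing or in all 3 lists, the missing ones made up 19 of 67 at actin genes (28.4%), 17 of 67 at matrix genes (25.4%), 18 of 52 at receptor and TGF-β genes (34.6%) and 14 of 43 at mesenchyme factor genes (32.6%), with 30.7% over all genes. A locus was found at 5 of 27 AP-1 and immediate early genes (18.5%), 5 of 40 secretory phenotype genes (12.5%), 5 of 22 HMG box and nuclear architecture genes (22.7%), 2 of 46 cell cycle and replication genes (4.35%) and 1 of 18 genes of CTCF and the cohesin machinery (5.56%). In the same order, 70.4%, 37.5%, 40.9%, 30.4% and 22.2% of their genes had a distal control locus. The missing loci numbered 5, 7, 5, 2 and 1 beside 21, 15, 11, 14 and 2 loci in all 3 lists, which made them 19.2%, 31.8%, 31.3%, 12.5% and 33.3% of the loci in either class. The genes of these short counts were named after their values were seen. They included EGR2, FOSL1, KLF2, KLF6 and NR4A1 among immediate early genes, HGF, IGFBP2, IGFBP5 and IL6 among secretory genes, EMD, HMGA2, HMGB1, LMNA and LMNB1 in the nuclear architecture list, CCND3 and MCM7 in the cell cycle list, and the cohesin regulator gene PDS5A. The median number of loci per gene was 0 in every list and over all genes.

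Named genes with at least 2 loci included matrix, receptor and transcription factor genes. COL4A2 had 4, at 15.8, 52.9, 83.4 and 87.2 kb from its 5′ end, with totals of 7255, 5009, 5270 and 4204 in control and 7012, 3459, 3414 and 6157 in ICM. MYLK also had 4, of which 1 carried CTCF of all lists. Control totals there were 3969, 4310, 3564 and 9078 and ICM totals 3016, 4282, 2887 and 3893. NRP2, which encodes a semaphorin and VEGF co-receptor, had 3 with 6910, 5141 and 8258 in control and 2727, 3915 and 3715 in ICM. There were 2 at each of ACTN1, LOXL2, LTBP1, SPARC, EGFR, IGF1R, ROR1, FOXP1, GLI2, MEIS1, RUNX1 and IGFBP5. Of these, the one with the highest mean percentile was 142.1 kb downstream of the 5′ end of MEIS1, a homeobox gene, at chr2:66575797-66578572, with totals of 14562 and 7454. It ranked at percentile 92.5 in control and 86.6 in ICM and lay 261105 bp from the nearest senescent peak. MEIS1 had no distal locus in all 3 lists. A locus 2.10 kb upstream of RUNX1 ranked at 80.4 and 88.7 and overlapped CTCF of the ICM list. The 2 loci at EGFR, a growth factor receptor gene, ranked at 32.0 and 17.4 in control and at 7.64 and 4.64 in ICM, near the threshold of the ICM list.

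The loci were spread over all chromosomes. Chromosome 1 held the most, 245, and chromosome X the fewest, 25. The share of distal control and ICM loci missing from senescent was 20.9% (95% CI 15.6 to 27.0) on chromosome 22, the lowest, and 44.6% (31.3 to 58.5) on X, where it rests on 56 loci.

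Runs of at least 3 loci with gaps of at most 50 kb numbered 50 and held 167 loci (6.98%, 95% CI 5.99 to 8.07), with 37 runs of 3, 9 of 4 and 4 of 5. Distal loci of all 3 lists were in such runs in 29.3% of cases (28.1 to 30.6), but there are 5034 of them against 2394, and the shares were not adjusted for the size of the class. Among the other classes the share was 9.79% for the 3727 loci of ICM only, 5.20% for 1867 of senescent only, 3.57% for 1121 of control only and 2.33% for 1286 of ICM and senescent. None of the 493 loci of control and senescent was in a run. Membership of a run depends on neighbouring loci, while the intervals of these shares treat loci as independent. The share of the loci in runs was 3.09% with gaps of at most 25 kb, 15.7% with 100 kb, and 3.77% in SMC1 lists of equal length by total signal. The nearest neighbour among distal loci of control and ICM was also missing from senescent for 35.6% (33.7 to 37.5) of the loci and for 29.1% (27.9 to 30.4) of loci in all 3 lists. The 2 shares were 32.9% (29.2 to 36.9) and 26.3% (24.1 to 28.7) where the neighbour was under 10 kb away, and 29.5% (26.2 to 33.0) and 29.9% (27.7 to 32.2) at 10 to 50 kb. They were 40.03% (36.3 to 43.9) and 28.8% (26.3 to 31.4) at 50 to 200 kb, and 42.9% (38.03 to 47.8) and 33.97% (30.4 to 37.7) at 200 kb or more.

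**Figure D5:**
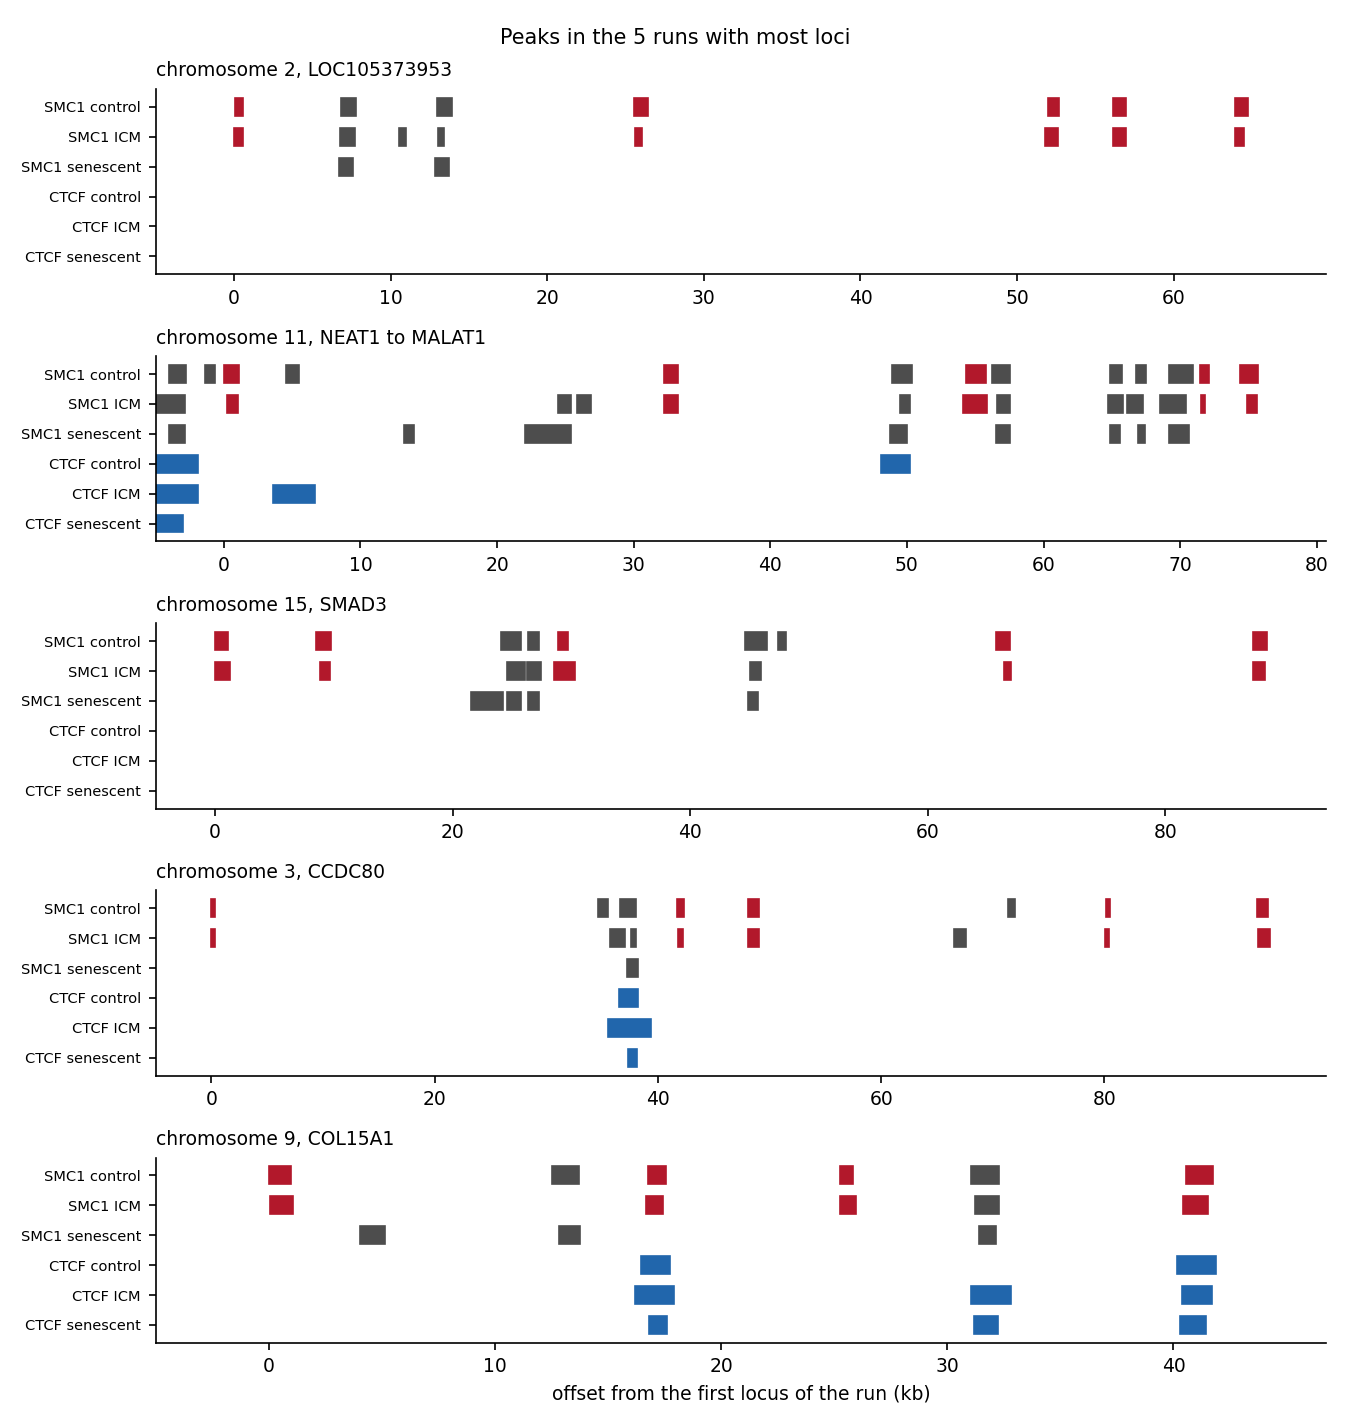
SMC1 and CTCF peaks of all 6 lists (rows) in the 5 runs with most loci, by offset from the first locus (x axis, kb, with a scale of its own in each panel). Red marks SMC1 peaks of the loci missing from senescent, grey other SMC1 peaks and blue CTCF peaks; each run held fewer senescent SMC1 peaks than control or ICM ones, and no CTCF peak falls in the chromosome 2 and SMAD3 runs.

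The 4 runs of 5 loci and the shortest run of 4 were examined peak by peak. On chromosome 2 a run of 5 spanned chr2:237171216-237235950 (64.7 kb) with no protein-coding gene in it and with COPS8 85.3 kb away as the nearest 5′ end. Its loci had totals of 3650, 3742, 3851, 5355 and 3583 in control and 4698, 3162, 3740, 5704 and 3847 in ICM, or percentiles of 4.34 to 44.1 and of 30.2 to 75.5. The control list held 7 SMC1 peaks there, the ICM list 8 and the senescent list 2, and no CTCF list held any. On chromosome 11 a run at chr11:65422407-65498098 extended from NEAT1, the noncoding RNA that scaffolds paraspeckles, to MALAT1, a noncoding RNA of nuclear speckles. Totals were 5735, 5221, 7723, 4818 and 8815 in control and 3375, 4432, 5363, 2817 and 4552 in ICM, and here 7 senescent SMC1 peaks were interspersed with 11 control and 12 ICM peaks. Of the 5 loci, 2 were under 1 kb from a senescent peak.

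The SMAD3 run at chr15:67080388-67168935 held 9 control, 8 ICM and 4 senescent SMC1 peaks and no CTCF peak. A run at chr3:112605321-112700189 around CCDC80, which encodes a secreted matrix protein, held 8 control and 8 ICM peaks but 1 senescent peak, which coincided with the 1 CTCF peak of each list. The strongest of its loci had totals of 9283 in control and 7748 in ICM (percentiles 78.1 and 87.9), and its other loci lay between 3829 and 7226 in control. In the COL15A1 run, at chr9:98958053-98999805, 2 of 4 loci overlapped CTCF in all 3 lists. Totals there were 8747, 6219, 3803 and 7392 in control and 3666, 2600, 2596 and 7017 in ICM. In each of the 5 runs the senescent list held fewer SMC1 peaks than either other list, which follows in part from the selection of the loci.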

How the data were processed

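CUT&Tag peak lists of 6 libraries of IMR90 fibroblasts were used, for CTCF and SMC1 in control, ICM-treated and senescent cells. The authors placed reads on hg38 with Bowtie2 (2.3.4.1) and called peaks per library with SEACR (1.3) in stringent mode, keeping the top 1% of regions, without pooling. Versions are those of the submitters' processing notes, which also name Picard (2.20.7) and deepTools. The deposited values are the total signal and the highest signal of each peak, all whole numbers. It is therefore not clear whether the E. coli scaling of the methods was applied to them, and no common scale between lists is known. Each list is cut at its own threshold, which limits what a missing peak can mean. Depth per library is unknown, and with 1 library per group no test between conditions was made.

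Gene positions came from a RefSeq table (GRCh38) and strands from the RefSeq promoter table or, by symbol, GENCODE v44; 19630 of 19974 protein-coding genes (98.3%) had one. Python (3.11.15), numpy (2.4.6), pandas (2.3.3) and scipy (1.17.1) were used. Peaks on mitochondrial DNA were left out. The overlap and interval functions were tested on simulated data. Loci named are those of highest mean percentile, of highest CTCF signal, in the 5 runs with most loci, over the 10 genes with most loci, at listed genes with at least 2 loci, and nearest to each limit. All 302 genes of the 9 gene lists matched. The values of 1 listed gene with at least 2 loci are not reported here. The loci and lists were chosen with earlier results of these data known. Alternatives changed how peaks are joined, list lengths, thresholds, the promoter rule, CTCF overlap, run gaps, gene bodies and the rank measure.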

Additional observations from a re-analysis of the deposited data

Results flagged for a closer look

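Each SMC1 list held 1 peak on mitochondrial DNA, which entered no comparison. It was set apart because its share of all listed SMC1 signal was higher in both other lists than in the control list. Control cells had 12.4% of the listed signal on it, while the value was 20.6% after ICM and 31.4% in senescence. For CTCF the order was another one, with 27.7% of listed CTCF signal on mitochondrial DNA in control, 14.4% after ICM and 18.0% in senescence. Its part in the loci missing from the senescent list was not tested.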

How the results depend on the processing

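Of 80 values recomputed under 17 alternatives, 46 stayed within the interval of the reported value (counts within 1.5 times) and 34 moved. The cause was not tested unless the alternative's own construction gives it. Under each alternative run for this result, the loci had CTCF less often than distal loci of all 3 lists. Their rank and their share in runs were also lower in each alternative run for them. Rank measures the peaks that the loci were selected on. The class of all 3 lists was the larger one each time, and shares in runs were not adjusted for class size. The orders of rank and runs are therefore a description only. When SMC1 peaks were joined by 100 bp windows on summits, the share missing from senescent was 43.5%, the CTCF shares 18.4% (control), 27.4% (senescent) and 32.4% (any list), the share in runs 11.3% and the median control percentile 36.6. Joining peaks less than 1 kb apart gave 5.66% in runs. SMC1 lists of equal length by total signal gave 1433 loci, 24.9% missing, CTCF shares of 15.5%, 25.1% and 29.3%, 3.77% in runs and a median percentile of 42.5, and by highest signal 29.2% missing, 11.8% with control CTCF, 4.30% in runs and a percentile of 34.03. With control and ICM peaks above percentile 50 only, 429 loci were left, with 13.4% missing, 17.0% with control CTCF, 30.1% with any CTCF, 0.699% in runs and a percentile of 65.4. Without a senescent peak within 5 kb, 4.45% were in runs. Summit windows for CTCF gave 10.1%, 21.1% and 23.3%, and CTCF lists of equal length 13.7% with senescent and 19.3% with any CTCF. Run gaps of 25 and 100 kb gave 3.09% and 15.7% in runs. Gene bodies extended by 5 kb were overlapped by 62.8%, and the median percentile by highest signal was 44.6. Counting both ends of genes without a strand left 2391 loci, and counting all RefSeq protein-coding starts left 2247, with 13.2% overlapping control CTCF and 6.85% in runs. These last alternatives were chosen after seeing the data. No paired analysis was possible because each group has 1 library. A missing peak may lie just under the senescent threshold, and with 1 library per group and unknown depth this cannot be told apart from loss of cohesin.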
